A study of Mus musculus with 6 samples.

Results

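The 10 genes described here encode C-type lectin receptors of myeloid cells, namely Clec4e, Clec4d, Clec4n, Clec4a1, Clec4a2, Clec4a3, Clec7a, Clec5a, Clec12a and Clec10a. They were chosen by name from a table of 18089 genes after the difference between the genotypes had been seen in the same 6 libraries, so that their differences between WT and Gpr174-/Y muscles are a description and not an independent test. RNA was sequenced from ischemic gastrocnemius muscle of male C57BL/6 mice, 8 to 10 weeks old, taken 7 days after hindlimb ischemia (HLI), a ligation of the femoral artery that starves one leg of blood. The 3 Gpr174-/Y libraries come from mice with a knockout of the X-linked receptor gene Gpr174, the 3 WT libraries come from littermate controls, and both groups had the same injury. The labels name no batch and do not say whether a library is 1 animal, so p-values measure only the spread between these libraries.

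C-type lectin receptors bind sugars, lipids and molecules released by dying cells through a calcium-dependent lectin fold or a fold derived from it. Mincle (Clec4e), MCL (Clec4d) and Dectin-2 (Clec4n) have no signalling motif of their own and signal through the Fc receptor gamma chain, and MDL-1 (Clec5a) does so through DAP12, whereas Dectin-1 (Clec7a), the receptor for fungal beta-glucan, carries its own activating tail. All of these feed the kinase SYK and, through CARD9, cytokine genes. DCIR1 (Clec4a2) and MICL (Clec12a) carry inhibitory motifs that recruit phosphatases, Clec4a1 and Clec4a3 encode close relatives of DCIR1, and MGL1 (Clec10a) binds terminal galactose and is used as a marker of alternatively activated macrophages.

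Total counts were 18417107 to 18695036 in the WT and 19173051 to 19394505 in the Gpr174-/Y libraries, and 14395 genes passed the filter on low counts, among them all 10 receptors. Clec4e passed this filter only through its Gpr174-/Y libraries, since its WT counts were too low. Gpr174 itself was counted 8, 2 and 5 times in the WT libraries and 1, 0 and 0 times in the Gpr174-/Y libraries. In the WT group replicate 2 lay between replicates 1 and 3 in 77.1% of 9972 genes with a level of at least 10 CPM (counts scaled to library size). In the Gpr174-/Y group this share was 68.2%. A separate random order for each gene would give 33.3%. Genes do not vary independently, so these shares cannot tell whether the libraries are ordered. Values without replicate 2 are given as well. The tissue also differed: the summed level of 20 mature muscle fibre genes was 167682 to 237430 CPM in the WT and 75902 to 84542 CPM in the Gpr174-/Y libraries, and all 20 fell. In bulk muscle, fewer cells of a type and less RNA per cell cannot be told apart.

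The receptors with the largest differences, Clec4d and Clec4e, are neighbours on chromosome 6, and their start regions are shown beside that of Clec7a, an abundant receptor whose level differed little. The windows run from 250 bases before to 50 bases after the transcription start and come from RefSeq on GRCm38.p6. Capitals mark the letters GAGGAA or, on the other strand, TTCCTC, the core bound by the myeloid factor PU.1.
Clec4e promoter, chr6:123289822-123290121, strand minus: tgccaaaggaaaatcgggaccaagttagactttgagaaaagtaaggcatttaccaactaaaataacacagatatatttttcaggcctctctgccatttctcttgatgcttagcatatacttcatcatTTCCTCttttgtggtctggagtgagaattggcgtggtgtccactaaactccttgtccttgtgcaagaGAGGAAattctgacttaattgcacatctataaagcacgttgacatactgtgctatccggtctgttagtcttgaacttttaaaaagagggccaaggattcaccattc
Clec4d promoter, chr6:123261857-123262156, strand plus: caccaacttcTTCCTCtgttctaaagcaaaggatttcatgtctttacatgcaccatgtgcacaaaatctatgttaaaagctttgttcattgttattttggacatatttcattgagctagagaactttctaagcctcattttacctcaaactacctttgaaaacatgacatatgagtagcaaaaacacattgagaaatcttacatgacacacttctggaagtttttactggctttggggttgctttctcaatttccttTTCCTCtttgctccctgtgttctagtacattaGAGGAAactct
Clec7a promoter, chr6:129472730-129473029, strand minus: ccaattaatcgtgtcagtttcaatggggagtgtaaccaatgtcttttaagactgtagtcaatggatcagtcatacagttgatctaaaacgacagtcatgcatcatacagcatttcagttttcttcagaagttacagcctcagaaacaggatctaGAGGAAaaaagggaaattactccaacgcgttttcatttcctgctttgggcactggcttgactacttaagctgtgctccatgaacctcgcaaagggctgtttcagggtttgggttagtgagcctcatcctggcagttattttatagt
The Clec4e window held 2 matches, beginning 123 and 56 bases upstream of the start site. The Clec4d window held 3, beginning 240 bases upstream and 7 and 39 bases downstream of it, and the Clec7a window held 1, beginning 96 bases upstream. RefSeq windows were found for 8 of the 10 receptors, in 10 windows, and 8 of these windows, from 7 receptors, held the PU.1 core on either strand, against 28.3% of all 32851 windows. The windows are not all separate sequence: those of Clec4a3 overlap, and those of Clec7a overlap and hold the same match. The letters TTGCNNAA of C/EBP factors were in 2 windows (Clec4e and Clec12a; 10.8% of all windows), TGANTCA of AP-1 in 2 (Clec4a2 and Clec12a; 7.81%) and GCGNGGGCG of EGR1 in none (5.55%). Such a match describes the letters and is not evidence that a factor bound there.

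Among the activating receptors, the log2 fold changes of the 3 that signal through the Fc receptor gamma chain, Clec4e, Clec4d and Clec4n, lay between 1.09 and 2.81. The figures for each library are CPM after TMM scaling, which corrects for differences in RNA composition, and the fold changes come from edgeR's quasi-likelihood test with Benjamini-Hochberg adjustment over all 14395 genes. Where 3 values follow each other, they belong to replicates 1, 2 and 3 in that order. Clec4e was counted 2, 4 and 6 times in the WT libraries (0.124, 0.238 and 0.337 CPM) and 33, 29 and 46 in the Gpr174-/Y libraries (1.58, 1.37 and 2.14 CPM). Every Gpr174-/Y library lay above every WT library, although the WT level was close to the smallest number taken as detectable, 3 counts per library. Its log2 fold change was 2.81 (SE 0.35, adjusted p = 0.00141). Because only the Gpr174-/Y libraries met the filter on low counts, this p-value is no independent support for the difference. With all WT reads pooled, 12 counts stood against 108, a ratio of 7.16 after scaling, with an exact 95% binomial interval of 3.94 to 14.3 that covers counting error only.

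Clec4d, which pairs with Mincle at the cell surface, had 2.24, 2.74 and 3.88 CPM in the WT libraries and 12.1, 11.6 and 10.7 CPM in the Gpr174-/Y libraries. The groups were far apart compared with the spread within them, and the log2 fold change was 1.94 (SE 0.18, adjusted p = 0.000766). Clec4n, a receptor for fungal mannans, had 7.59, 10.1 and 12.5 CPM in the WT and 22.9, 22.1 and 19.6 CPM in the Gpr174-/Y libraries. Again no library overlapped, with a log2 fold change of 1.09 (SE 0.17, adjusted p = 0.00239).

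Clec5a, the DAP12-coupled receptor, was the most uneven among the WT libraries, with 1.12, 2.68 and 4.61 CPM in the WT libraries, against 7.02, 5.74 and 5.72 CPM in the Gpr174-/Y libraries. The highest WT library was close to the lowest Gpr174-/Y library, without overlap. The log2 fold change was 1.12 (SE 0.38, adjusted p = 0.0433), and WT replicate 3 alone was 4.11 times WT replicate 1. Without WT replicate 1 the log2 fold change was 0.76, without WT replicate 3 it was 1.69, and the adjusted p was above 0.05 in 4 of the 6 fits that each left out 1 library. Clec7a was the most even receptor: 42.4, 43.6 and 45.7 CPM in the WT and 53.4, 53.8 and 55.3 CPM in the Gpr174-/Y libraries. Its groups did not overlap, and the difference was small and precise, with a log2 fold change of 0.30 (SE 0.05, adjusted p = 0.00297).

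The receptors with inhibitory motifs and their relatives had smaller fold changes than Clec4e, Clec4d and Clec4n. Clec12a, which recognises uric acid crystals from dead cells, had 14.2, 22.1 and 32.5 CPM in the WT libraries and 40.2, 38.9 and 40.7 CPM in the Gpr174-/Y libraries. The WT libraries spread over a 2.29-fold range while the Gpr174-/Y libraries lay within 1.05-fold of each other, and the log2 fold change was 0.79 (SE 0.26, adjusted p = 0.0348). That call was lost in 4 of the 6 fits that left out a library. Clec4a2 had 10.6, 12.5 and 13.5 CPM in the WT and 16.0, 15.5 and 18.5 CPM in the Gpr174-/Y libraries, a log2 fold change of 0.44 (SE 0.11, adjusted p = 0.0147) without overlap.

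Clec4a3 had 12.2, 17.0 and 20.2 CPM in the WT and 21.8, 22.7 and 23.8 CPM in the Gpr174-/Y libraries. The gap between the groups was narrow, the log2 fold change was 0.46 (SE 0.16), and the adjusted p of 0.0487 was just under the threshold and was above it in 4 of the 6 fits that left out a library. Clec4a1 overlapped, with 17.2, 22.3 and 31.6 CPM against 29.0, 29.9 and 32.0 CPM, a log2 fold change of 0.35 (SE 0.20) and an adjusted p of 0.177. Without WT replicate 3 its log2 fold change was 0.62 (adjusted p = 0.00137). Clec10a went the other way and also overlapped, with 13.4, 12.4 and 10.1 CPM in the WT and 10.5, 9.18 and 8.93 CPM in the Gpr174-/Y libraries. Its log2 fold change was -0.33 (SE 0.12, adjusted p = 0.0622), and without WT replicate 3 it was -0.43 (adjusted p = 0.00499). The estimated reads of Clec4a2 were not whole in any library, and those of Clec4a1 and Clec10a in only some, as happens where reads are shared with other genes, so that the levels of these 3 are less certain.

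**Figure D1:**
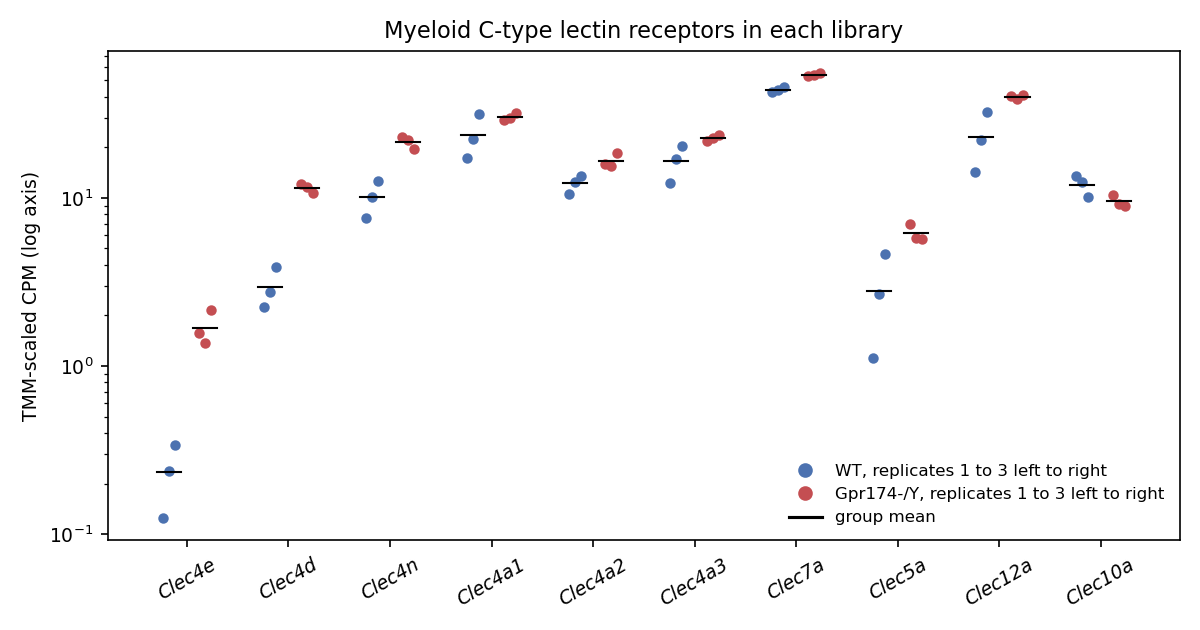
TMM-scaled CPM (log axis) of the 10 receptors in each of the 6 libraries, with WT in blue, Gpr174-/Y in red and the group mean as a line. Every Gpr174-/Y library lies above every WT library for 8 receptors, Clec4a1 and Clec10a overlap, and the highest WT library is 4.11 times the lowest for Clec5a, 2.71 times for Clec4e and 2.29 times for Clec12a.

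In all, 8 of the 10 receptors passed an adjusted p of 0.05 as higher in Gpr174-/Y muscle and 0 as lower (edgeR; 9 had an unadjusted p under 0.05 in either direction, and DESeq2 also called 0 lower). Of all genes tested, 27% passed as higher and 27.6% as lower. With a log2 fold change above 1 as well, 4 receptors passed (Clec4e, Clec4d, Clec4n and Clec5a), against 3.45% of all genes. The groups did not overlap, with Gpr174-/Y higher, for 8 receptors and for 33.1% of all genes, and with Gpr174-/Y lower for 0 receptors and 32.4% of all genes. The median log2 fold change of the receptors was 0.63 and that of all genes 0.00. Because the receptors were picked with this contrast in view, and Clec4e passed the filter only through its Gpr174-/Y libraries, nothing is read from these counts.

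The WT libraries were not alike. WT replicate 3 was the highest WT library for 9 of the 10 receptors and replicate 1 the lowest for the same number, Clec10a being the exception with the opposite order. Fibre gene levels were highest in WT replicate 1 (237430 CPM) and lowest in replicate 3 (167682 CPM), and the part of these differences in the receptors' values was not tested. Against WT replicate 3 alone, the mean Gpr174-/Y level was 5.02-fold for Clec4e, 2.95-fold for Clec4d and 1.72-fold for Clec4n, but 0.957-fold for Clec4a1. With replicates 1 and 3 of each group only, the log2 fold changes were 2.95, 1.88 and 1.08 for Clec4e, Clec4d and Clec4n, yet no gene of the 14447 then tested passed in edgeR (5026 had an unadjusted p under 0.05, 5 of them receptors, and the smallest adjusted p was 0.0542).

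Compared per length, the receptors kept a similar order of levels in both genotypes, with Clec7a and Clec12a at the top and Clec5a and Clec4e at the bottom. In FPKM, the deposited value scaled for transcript length and depth, WT muscle had 19.0 ± 1.6 for Clec7a, 16.0 ± 7.1 for Clec12a, 14.4 ± 5.1 for Clec4a1, 12.8 ± 3.7 for Clec4a3 and 11.2 ± 1.9 for Clec4a2 (SD, n = 3). Below these came Clec4n at 7.99 ± 2.28, Clec10a at 7.48 ± 0.76, Clec4d at 2.10 ± 0.69, Clec5a at 0.693 ± 0.451 and Clec4e at 0.0867 ± 0.0451. The ranges of each neighbouring pair from Clec7a down to Clec10a overlapped, and only the last steps to Clec4d, Clec5a and Clec4e were free of overlap.

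In Gpr174-/Y muscle Clec12a led with an FPKM of 33.2 ± 1.3, above Clec7a at 28.3 ± 1.1 in each library. Clec4a1 (22.1 ± 1.6), Clec4a3 (21.1 ± 1.5), Clec4n (20.1 ± 1.3) and Clec4a2 (17.4 ± 2.5) followed, and neighbours among these 4 overlapped. Clec4d, at 9.76 ± 0.44, stood above Clec10a, at 7.22 ± 0.50, the reverse of their WT order, and Clec5a (1.81 ± 0.19) and Clec4e (0.757 ± 0.189) stayed lowest. Clec4e was thus the receptor with the largest fold change and the lowest level in both genotypes.

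Most of the receptors lie in 2 groups of lectin genes on chromosome 6. In the RefSeq gene order on GRCm38.p6, protein-coding genes only, the first group runs Clec4a1, Clec4a3, Clec4a4, Clec4b1, Clec4a2, Clec4b2, Clec4n, Clec4d and Clec4e. The log2 fold change was between 0.35 and 0.46 for Clec4a1, Clec4a3 and Clec4a2, at places 1, 2 and 5 of this order. It was 1.09, 1.94 and 2.81 for Clec4n, Clec4d and Clec4e, which are consecutive at the end. Of the other genes of this group, Clec4b1 had -0.08 (SE 0.28, adjusted p = 0.836). Clec4a4 had at most 1 count in a WT library and 4 or 5 in each Gpr174-/Y library, too few to be tested, and Clec4b2 was not analysed here. The second group runs Clec12a, Clec12b, Clec1b, Clec9a, Clec1a and Clec7a. There the 2 receptors at the ends were higher (0.79 and 0.30), whereas Clec9a, a receptor of cross-presenting dendritic cells, fell by 0.85 on the log2 scale (SE 0.11, adjusted p = 0.00140) and Clec1a fell by 0.41 (SE 0.11, adjusted p = 0.0218). Clec12b and Clec1b had at most 9 counts in any library and were not tested.

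**Figure D2:**
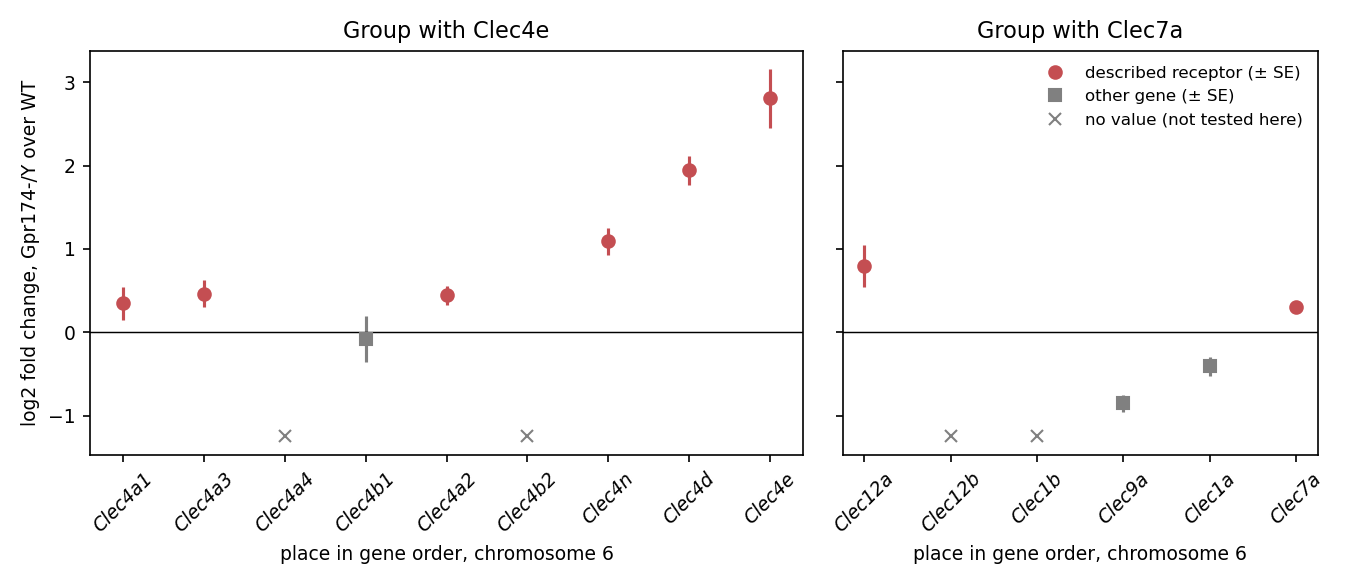
Log2 fold change (Gpr174-/Y over WT, bars standard error) of the lectin genes by their place in the chromosome 6 gene order, with described receptors as red circles, other genes as grey squares and genes with no value as crosses. The 3 consecutive genes Clec4n, Clec4d and Clec4e have 1.09, 1.94 and 2.81, above the other genes of both groups that were tested.

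The gene sums hide the estimated counts of single transcripts, which are given here. At least 2 RefSeq transcripts were listed for 8 receptors. For 4 of them (Clec4n, Clec4d, Clec4a2 and Clec10a) the share of some transcript did not overlap between the groups. How often this happens over all genes with several transcripts was not computed, so nothing is read from this count. These shares were looked at after the gene values were known, are estimates of a model that divides shared reads, and are given without a test. Clec4n has a form with 6 exons and a form with 5 that lacks the third exon of the longer one. That exon is 102 bases long and coding, 34 codons that leave the reading frame intact, and it is shown because it is the main sequence that tells the forms apart (GENCODE M21, GRCm38, lower case throughout).
Clec4n extra exon, chr6:123232093-123232194, strand plus: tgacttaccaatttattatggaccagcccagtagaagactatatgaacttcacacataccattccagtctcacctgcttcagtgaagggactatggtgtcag
The form with this exon made up 62.2%, 60.6% and 66.3% of Clec4n counts in the WT libraries and 83.8%, 85.3% and 86.1% in the Gpr174-/Y libraries (63.0% ± 2.9 against 85.1% ± 1.2, SD, n = 3). In scaled level it had 4.72, 6.13 and 8.31 CPM in the WT and 19.2, 18.8 and 16.9 CPM in the Gpr174-/Y libraries. The form without the exon had 2.87, 3.99 and 4.23 CPM against 3.71, 3.25 and 2.73 CPM, and its groups overlapped.

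Clec4d resembled it: transcript NM_010819.4 made up 66.1%, 74.5% and 87.6% of counts in the WT libraries and 93.7%, 95.3% and 90.5% in the Gpr174-/Y libraries. The other transcript, NM_001163161.1, stayed between 8.57 and 12.2 counts in the WT and between 11.4 and 21.7 counts in the Gpr174-/Y libraries. Both carry the same GENCODE transcript identifier, so their difference in sequence was not analysed here.

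In Clec10a, whose sum did not pass the test, the 2 transcripts differed in opposite directions. Transcript NM_010796.3 had 9.77, 10.4 and 7.30 CPM in the WT libraries and 3.66, 4.71 and 3.96 CPM in the Gpr174-/Y libraries, and NM_001204252.1 had 3.68, 1.95 and 2.78 CPM against 6.80, 4.48 and 4.99 CPM. Neither overlapped, and the share of NM_010796.3 was 76.5% ± 6.8 in the WT and 43.5% ± 8.1 in the Gpr174-/Y libraries (SD, n = 3). The second form has 3 more coding bases (915 against 912), and 45 bases outside the coding part are found only in the first, which leaves few reads to tell them apart. For Clec4a2, 1 of 4 transcripts, XM_030255403.1, held 29.9% ± 5.6 in the WT and 50.0% ± 6.9 in the Gpr174-/Y libraries (SD, n = 3).

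For the other receptors with at least 2 transcripts, the shares overlapped between the groups. In Clec4a3, transcript NM_153197.4 held 42.4%, 45.3% and 41.0% in the WT and 58.7%, 55.4% and 43.3% in the Gpr174-/Y libraries. In Clec12a the main transcript held 82.2% ± 3.9 in the WT and 81.9% ± 1.5 in the Gpr174-/Y libraries. Clec5a, whose long form has an extra coding exon of 75 bases, was assigned wholly to the short form in WT replicates 1 and 2 and wholly to the long form in WT replicate 3, so its shares are unstable at 18 to 82 counts. For Clec4e the WT counts were too few to divide, while 94.9% or more of the counts of each Gpr174-/Y library belonged to NM_019948.2.

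**Figure D3:**
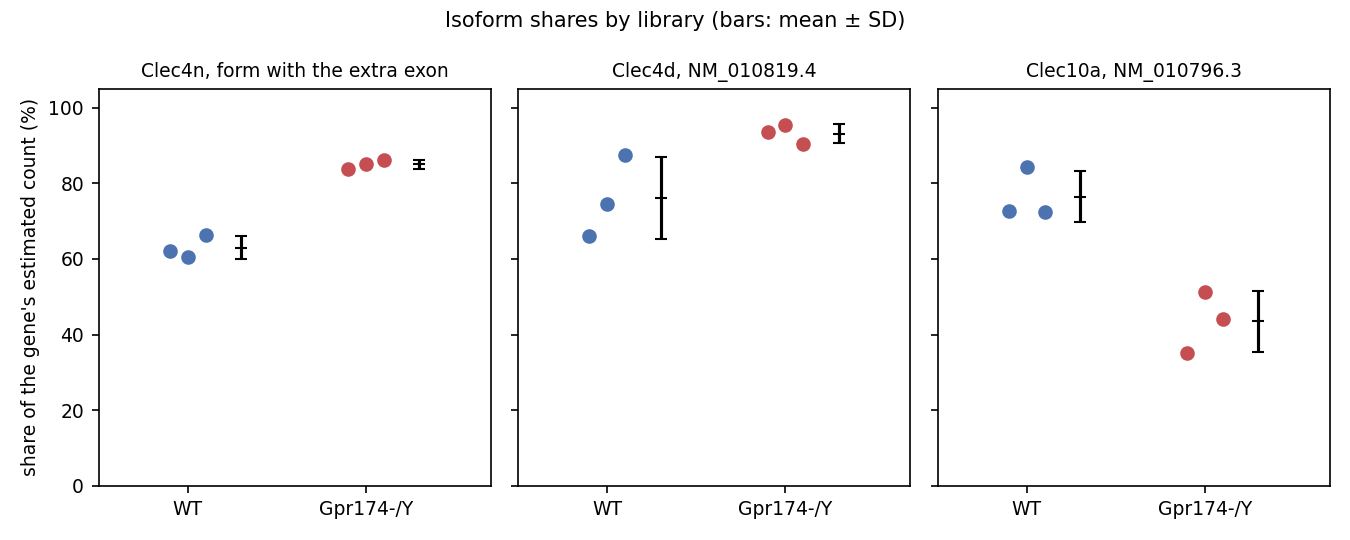
Share (%) of the gene's estimated count taken by 1 transcript of Clec4n, Clec4d and Clec10a in each library, with the mean and SD of each group beside the points. The Clec4n form with the extra exon averages 63.0% in WT and 85.1% in Gpr174-/Y libraries, NM_010819.4 of Clec4d lies at 90.5% or more in Gpr174-/Y libraries, and NM_010796.3 of Clec10a averages 76.5% and 43.5%.

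The receptors were set beside 8 macrophage and pan-leukocyte genes to describe how they differed from myeloid RNA in general. Of these 8 reference genes, 6 rose and 2 did not pass, with a median log2 fold change of 0.81. Itgam, the CD11b integrin chain, rose by 1.60, Cd68, a lysosomal protein of macrophages, by 1.22, and Lyz2, lysozyme, by 1.00, while Fcgr1 had 0.78 (adjusted p = 0.0817) and Aif1 had 0.71 (adjusted p = 0.0536). Their summed level was 1062 to 1573 CPM in the WT and 2568 to 2588 CPM in the Gpr174-/Y libraries. Clec4e and Clec4d had larger fold changes than each of the 8 genes, a difference not tested against any of them singly.

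**Figure D4:**
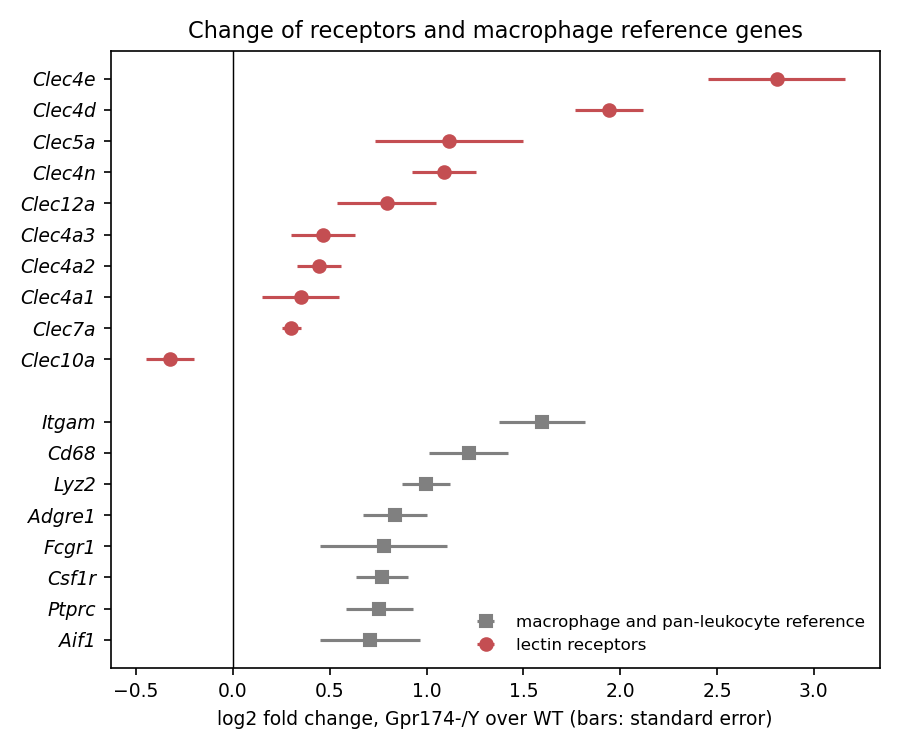
Log2 fold change of each receptor (red) and of each macrophage or pan-leukocyte reference gene (grey), Gpr174-/Y over WT, with standard errors as bars. Clec4e (2.81) and Clec4d (1.94) lie above Itgam (1.60), the highest reference gene, and Clec10a (-0.33) lies below 0.

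For each library the mean log2 CPM of the 8 genes was subtracted from the receptor's log2 CPM. This difference does not depend on how libraries are scaled against each other. Clec4e was at -8.40, -8.04 and -8.00 in the WT libraries and at -6.37, -6.62 and -6.09 in the Gpr174-/Y libraries, 1.79 higher on average, although only 0.93 higher on the log2(FPKM + 0.1) scale, where the pseudocount is near its own level. Clec4d was at -4.48, -4.65 and -4.57 against -3.45, -3.56 and -3.78, 0.97 higher. Relative to the reference, these were the only 2 receptors whose Gpr174-/Y libraries all lay above the WT libraries. The mean of the 8 genes was itself 1.01 higher in the Gpr174-/Y libraries. A gene whose own level did not differ would therefore lie lower on this scale. The share of all genes without overlap on this scale was not computed, so nothing is read from the count of receptors.

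Clec10a had moved furthest below, from -1.91, -2.48 and -3.21 in the WT libraries to -3.66, -3.89 and -4.04 in the Gpr174-/Y libraries, a difference of -1.33. Clec7a (-0.70), Clec4a1 (-0.61), Clec4a2 (-0.56) and Clec4a3 (-0.51) were also lower relative to the reference in each Gpr174-/Y library than in any WT library, although their own CPM was higher on average. Clec4a1 was the tightest of them, between -1.64 and -1.56 in the WT and between -2.20 and -2.19 in the Gpr174-/Y libraries. Clec4n (0.11), Clec5a (0.34) and Clec12a (-0.13) overlapped between the groups. With 3 libraries against 3, the 2-sided exact permutation test cannot go below p = 0.1, the value that all 7 receptors without overlap had, and since this is the contrast that chose the receptors it is no test of them.

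**Figure D5:**
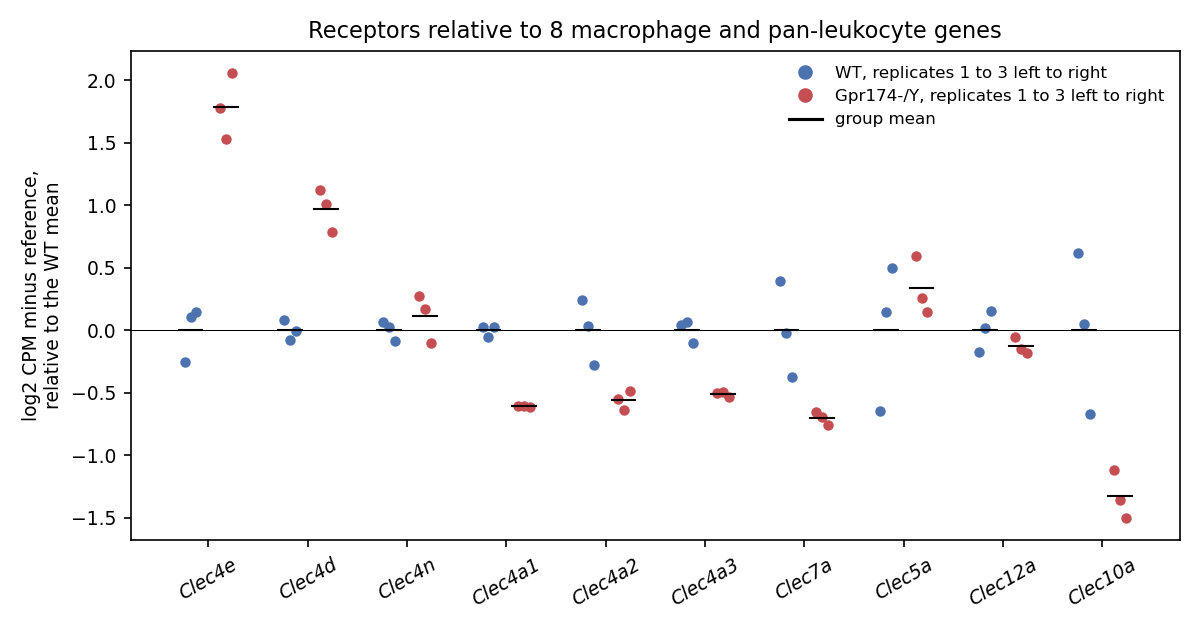
Log2 CPM of each receptor minus the mean log2 CPM of 8 macrophage and pan-leukocyte genes in the same library, drawn relative to the WT mean of that receptor (blue WT, red Gpr174-/Y, line group mean). Clec4e and Clec4d lie 1.79 and 0.97 above their WT means, 5 receptors lie below with Clec10a lowest at -1.33, and Clec4n, Clec5a and Clec12a overlap.

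Markers of single cell types differed in both directions, and their part in the receptors' values was not tested. Of all genes tested, 27% passed as higher and 27.6% as lower. Of 8 monocyte markers 5 rose and 3 did not pass, led by Chil3 (log2 fold change 2.38), Vcan (0.96) and Ccr2 (0.64), and their summed level was 143 to 199 CPM in the WT and 271 to 278 CPM in the Gpr174-/Y libraries. Chil3 had only 3, 5 and 6 counts in the WT libraries, against 41, 24 and 28, and passed the filter only through the latter. Ly6c2, which defines inflammatory monocytes, had -0.16 (adjusted p = 0.783). Of 6 tested resident macrophage markers 3 rose (Folr2 by 0.80, Mertk by 0.63 and Mrc1 by 0.54) and Cbr2 fell by 0.58, with sums of 147 to 159 CPM and 196 to 220 CPM. Of 10 neutrophil markers 4 could be tested: the proteases Mmp8 (2.85) and Mmp9 (2.66) and Csf3r (0.63) rose and Cxcr2 fell by 0.57. Mmp8 had only 3, 2 and 3 counts in the WT libraries, against 21, 25 and 29. It passed the filter on low counts only through the Gpr174-/Y libraries. The sum of the 10 markers, 25.0 to 52.8 CPM in the WT and 114 to 117 CPM in the Gpr174-/Y libraries, was mostly Mmp9 in the latter. The neutrophil-defining genes Ly6g, Ngp and Camp had at most 1 count in any library, and S100a8, S100a9 and Retnlg were below the filter.

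Of 8 dendritic cell markers 5 fell and 1 rose, Itgax (1.12), which macrophages also express. Cd209a fell by 0.92, Clec9a by 0.85 and Xcr1 by 0.73. The sum of all 8 was still higher in the Gpr174-/Y libraries (70.5 to 82.1 CPM against 52.9 to 60.7 CPM), of which Itgax alone made up 50.6 to 57.7 CPM and 20.5 to 29.1 CPM. Of 8 tested T, B and NK cell markers 7 did not pass and 1 fell (Ncr1, by 0.95), with sums of 19.6 to 29.3 CPM in the WT and 27.5 to 30.5 CPM in the Gpr174-/Y libraries. In the remaining tissue, 7 of 8 endothelial markers fell and 1, Vwf, rose, with sums of 891 to 1067 CPM and 582 to 651 CPM. Of 6 fibroblast markers 2 rose (Col1a1 and Col3a1) and 3 fell (Lum, Dcn and Pdgfra), with sums of 11951 to 16857 CPM and 20707 to 23711 CPM.

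Most, but not all, of the listed genes for signalling partners of the activating receptors were higher as well. Of 14 genes for adaptors and the SYK and CARD9 pathway, 10 rose and 3 did not pass, with a median log2 fold change of 0.71. Of all genes tested, 27% passed as higher. The 8 macrophage and pan-leukocyte genes had a median of 0.81, so the median of the pathway list was not above that of myeloid RNA in general. Tyrobp, which encodes DAP12, the adaptor of MDL-1, had 41.8, 52.9 and 72.8 CPM in the WT libraries and 114, 112 and 112 CPM in the Gpr174-/Y libraries. Its groups did not overlap and its log2 fold change was 1.01 (SE 0.18, adjusted p = 0.00408). Vav1, a guanine nucleotide exchange factor, rose by 1.04 and Plcg2, a phospholipase downstream of SYK, by 0.90.

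Fcer1g, the Fc receptor gamma chain that Mincle, MCL and Dectin-2 need, had 65.3, 94.8 and 136 CPM in the WT and 156, 160 and 170 CPM in the Gpr174-/Y libraries, also without overlap, with a log2 fold change of 0.72 (SE 0.24, adjusted p = 0.0388). Syk rose by 0.72 and Card9 by 0.85. These were chosen for their place in the pathway after their values were seen. Hcst, which encodes DAP10, had -0.07 (adjusted p = 0.829), and Malt1 had -0.12 (adjusted p = 0.164). Of the 3 phosphatases used by inhibitory receptors, Inpp5d (0.85) and Ptpn6 (0.85) rose, and Ptpn11 had 0.07 (adjusted p = 0.253).

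Cytokine genes that SYK and CARD9 can drive were scarce in this tissue. Of 13, 8 could be tested, of which 4 rose and 4 did not pass. Il1b had 0.747, 0.714 and 1.07 CPM in the WT libraries and 2.77, 1.84 and 1.86 CPM in the Gpr174-/Y libraries, a log2 fold change of 1.34 (SE 0.26, adjusted p = 0.00560). Il6 had 0, 2 and 5 counts against 15, 13 and 16 (2.27, SE 0.57, adjusted p = 0.0141), and Tnf had 0.99 (SE 0.27, adjusted p = 0.0189). Il6 passed the filter on low counts only through its Gpr174-/Y libraries. Ccl3 had -0.03 (adjusted p = 0.924), and Il23a, Csf2 and Csf3 had at most 3 counts in any library.

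Other genes with a C-type lectin domain differed in both directions. Of 51 listed, 34 were tested, 3 rose, 10 fell and 21 did not pass, with a median log2 fold change of -0.22. Of all genes tested, 27% passed as higher and 27.6% as lower. The list was chosen with earlier results of these data known, so nothing is read from these counts. The 3 that rose were Mrc2 (0.78), a collagen receptor of fibroblasts and macrophages, Clec11a (0.73), a secreted growth factor, and Mrc1 (0.54), the macrophage mannose receptor. The largest decreases were those of Clec3b (fell by 1.31), which encodes tetranectin, Klrk1 (fell by 1.23), the NKG2D receptor of NK and T cells, and Cd209a (fell by 0.92).

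Among 13608 genes with a mean of at least 1 CPM, the 5 whose pattern over the 6 libraries was closest to Clec4e were Dcstamp, Lama1, Arg1, Prokr2 and Mmp12. Likeness was the root mean square difference of the gene-centred log2 CPM values, which was 0.20 for Dcstamp, a protein needed for the fusion of macrophages and osteoclasts, 0.21 for Lama1, a laminin chain, and 0.25 for Arg1, arginase. Mmp12, the macrophage elastase, had 4.85, 9.17 and 17.9 CPM in the WT libraries and 51.9, 68.4 and 92.4 CPM in the Gpr174-/Y libraries. Dcstamp had 0.187, 0.298 and 0.618 CPM against 1.86, 1.79 and 2.60 CPM. Their log2 fold changes were 2.72 for Mmp12 and 2.46 for Dcstamp. Genes chosen by this likeness must have a difference near that of Clec4e, so their shared direction is no further result.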

How the data were processed

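RNA was extracted with Trizol and made into libraries with a TruSeq kit per the labels, and sequenced on a BGISEQ-500 per the study's methods. HISAT2 2.0.4, Bowtie2 2.2.5, RSEM 1.2.12 and the build GRCm39 are named in the submitters' processing notes, and strand use is not given in the sources used here. For 58843 RefSeq transcripts the authors deposited, per library, expected counts (estimated reads, not normalized). The deposited table also holds FPKM and TPM, which the authors scaled for length and depth. The authors' group means were not used, and 0 per-sample columns were left over. Samples were mapped to genotype and replicate from the labels.

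Expected counts were summed per Entrez gene, rounded, and tested with edgeR 4.0.16 in R 4.3.3 (TMM, filterByExpr, glmQLFit with robust set, glmQLFTest, Benjamini-Hochberg adjustment over all genes tested, adjusted p 0.05 and absolute log2 fold change 1). The study's methods name DEGseq, in a form not given in the sources used here. Log2 CPM had a prior count of 0.5. Symbols were found for 99.7% of genes. The smallest number taken as detectable, 3 counts, is 0.155 to 0.163 CPM per library, and intervals cover counting error only.

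The members and the gene lists (adaptors and SYK-CARD9 pathway, phosphatases, cytokines, other lectin genes, and markers of macrophages, monocytes, resident macrophages, neutrophils, dendritic cells, lymphocytes, muscle fibres, endothelium and fibroblasts) were chosen with earlier results of these data known. Named are all members, up to 3 called genes per list and direction with the largest change, Gpr174, the 5 genes most like Clec4e, and genes said to be chosen after their values were seen. The result of 1 gene of the pathway list is not reported here. Marker genes given as untested or not passing were named for the same reason. The planned adjustment of the permutation p over the members alone is not printed, because the members were chosen from this contrast. Alternatives were DESeq2 1.42.0 (size factors, Wald test), library totals, no filter, a replicate block, leaving out each library, replicates 1 and 3 only, limma 3.58.1 on log2 FPKM with a pseudocount of 1 or 0.1 (genes reaching an FPKM of 1 in 3 libraries), and other references for the macrophage ratio. Transcript structures come from GENCODE M21 and promoters from RefSeq, both on GRCm38, a different build from that of the files, so they were matched by name only. Python 3.11.15, numpy 2.4.6, scipy 1.17.1, pandas 2.3.3 and matplotlib 3.10.9 were used for other steps.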

Additional observations from a re-analysis of the deposited data

How the results depend on the processing

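Under all 14 alternative fits no receptor changed direction, where a value could be had (Clec4e was below the FPKM filter of both limma fits). The count of receptors called higher was 8 as reported, 7 with DESeq2 size factors and 0 with replicates 1 and 3 only (edgeR; 5 with an unadjusted p under 0.05), where the count past a log2 fold change of 1 was 0 too. Leaving out 1 library gave 5 to 9 receptors called higher, 0 to 1 called lower, 2 to 5 past a log2 fold change of 1 and a median log2 fold change of 0.46 to 0.89. Of all genes, 3891 were called higher in the main fit. With 1 library left out, this number ran from 2651 (without WT replicate 2) to 4626 (without WT replicate 3). It was 0 with replicates 1 and 3 only, so the receptor counts are not read as particular to the receptors. Leaving out WT replicate 2 or any Gpr174-/Y replicate ended the calls of Clec4a3, Clec5a and Clec12a. Without WT replicate 3, Clec4a1 was called higher and Clec10a lower, and without WT replicate 1 only Clec4e and Clec4d passed a log2 fold change of 1. The median was 0.89 with library totals and 0.75 with limma on log2(FPKM + 0.1), scalings that moved the median of all genes by 0.27 in each case (0.26 with log2(FPKM + 1)) and the share of calls that were higher from 49.5% to 78.4% and 78.9%. Clec10a was then at -0.05 with library totals.

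Same-numbered libraries did not deviate together (correlations 0.01, 0.08 and 0.01 over 9972 genes), and the main fit used no pairing. These correlations describe expression only and cannot tell whether same-numbered libraries were handled together. With a replicate block 7 receptors were called higher, 1 (Clec10a) lower and 3 past a log2 fold change of 1, the median was 0.67, and all genes called fell from 7863 to 6812. Relative to macrophage genes, 7 receptors had groups without overlap as reported, 7 with Ptprc alone or with log2(FPKM + 0.1), 8 with Csf1r and Adgre1, and 7 to 8 when 1 library was left out. The difference of Clec4e was 0.93 in place of 1.79 with log2(FPKM + 0.1). Clec12a reversed from -0.13 to 0.053 with Csf1r and Adgre1 and to 0.10 with Ptprc alone, and the cause was not tested. The order of levels was the same in TPM. Depth limits Clec4e, with 2 to 6 WT counts.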
